A study of Mus musculus with 8 samples.

Results

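Genes of the cell cycle and of DNA replication were examined in liver RNA of mice with and without cytosolic malic enzyme. The set holds 38 genes that drive, copy or check the dividing cell, chosen by name and not by their values. A probe was listed for 37 of them, among 19896 named genes in all, and Ccnb1 was left out for want of a probe. Liver total RNA of 3 mice labelled Me1-/- and of 5 wild-type littermates was profiled, with 1 deposited column per mouse. Me1, also called Mod1, encodes the malic enzyme of the cytosol, which yields NADPH. On 2-colour arrays each mouse was set against pooled liver RNA of 5 wild-type control mice, with dye swaps. How the knockout allele was made, and the strain, sex, age and feeding state of the animals, are details not given in the sources used here. The labels number the wild types 14, 15, 21, 22 and 26 and the knockouts 27, 31 and 33, and values mouse by mouse always follow this order.

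A cell that divides first licenses its replication origins by loading the MCM helicase, then enters S phase under cyclin D, cyclin E and their kinases, copies its DNA, and passes through mitosis under cyclin A, cyclin B and Cdk1. E2F factors switch on genes of S phase, and genes of G2 and mitosis are switched on later through FOXM1, B-MYB and NF-Y. Hepatocytes of the adult liver are mostly at rest and often polyploid, and they can return to division when liver mass is lost. Whole liver also holds other cell types that divide, so a change of such a transcript in bulk RNA can come from fewer cells that express it or from less RNA in each cell, which cannot be told apart here.

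Every value below is a log2 ratio of 1 mouse to the pool, converted from log ratios whose base is not stated and was taken as 10. A ratio shows how a gene differs between mice and gives no level, so levels are not compared between genes and the presence of a cell type cannot be read from its markers. Differences are the knockout mean minus the wild-type mean, in log2 units, with the standard error (SE) of the limma fit, for 3 knockout and 5 wild-type mice. The direction of the ratio is not stated with the values and was read as mouse over pool. The mean ratio of the 5 wild types was then 0.996 (median over the 300 most variable probes), against 1.33 with the opposite sign. A pool of wild types would give a value near 1. With the same direction and base 2 the value was 0.971, also near 1, so the base is not settled by this check. If the base were 2, every difference, SD and SE would be smaller and every fold change nearer 1. Signs and the overlap of groups would stay the same. The knockout arrays are outside this check, and their direction is likely from their labels, which are worded like those of the wild types, but is not settled. Over all probes, 3 of the 28 pairs of arrays correlated below -0.3, of which 2 were pairs of wild types (mice 14 and 22 at -0.322, mice 22 and 26 at -0.459) and 1 held a knockout (mice 14 and 33 at -0.394). If the knockout arrays ran the other way, 32 of the 37 differences described below would change their sign, because the wild-type means lie near 0. Results are therefore given as read, with the counts under the turned sign given beside those for the set, its role groups and the other gene lists.

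The array check in brief: the SD of the log2 ratios over all probes lay between 0.127 and 0.291, widest in wild-type mouse 22 and next in knockout mouse 33. The number of arrays limits the precision. The 1 probe for Me1 itself had log2 ratios of 0.82, -0.81 and -0.68 in the knockouts and 0.82, -0.64, -0.70, -1.73 and 0.70 in the wild types. Me1 signal thus did not separate the genotypes (difference 0.09 ± 0.64, exact two-sided permutation p = 0.875), and a probe outside the altered part of the gene would check nothing about the labels. Whether the 3 mice lack the enzyme was therefore not checked by these values.

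The start regions of 8 members are shown to set the promoter letters of replication genes beside those of mitotic genes. The first set is Mcm2, Mcm3, Mcm6 and Hells, replication genes that were lower in the knockouts as read. It also holds Cdkn1a, the inhibitor that was lower with them. Each line gives the 150 bases before the first listed start (RefSeq, GRCm38.p6), 5′ to 3′ on the strand of the gene. Capitals mark matches, on either strand, to an E2F core (the letters TTCCCGC, the variant TTGGCGC, the variant TTCGCGC or the variant TTGCCGC), to the CHR element of late cell cycle genes (TTTGAA), to the NF-Y box (CCAAT), and in Cdkn1a to the p53 consensus.
Mcm2 (chr6:88898781-88898930, minus strand): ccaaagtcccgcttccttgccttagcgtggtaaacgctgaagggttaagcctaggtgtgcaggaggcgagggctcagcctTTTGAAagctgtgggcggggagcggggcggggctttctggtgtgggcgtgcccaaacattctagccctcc
Mcm3 (chr1:20820313-20820462, minus strand): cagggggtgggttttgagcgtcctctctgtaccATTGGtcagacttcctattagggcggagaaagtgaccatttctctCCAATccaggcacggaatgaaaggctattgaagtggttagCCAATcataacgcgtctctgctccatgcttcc
Mcm6 (chr1:128359706-128359855, minus strand): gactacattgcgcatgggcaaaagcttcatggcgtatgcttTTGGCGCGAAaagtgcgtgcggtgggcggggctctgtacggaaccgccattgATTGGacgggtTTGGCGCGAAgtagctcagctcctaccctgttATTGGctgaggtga
Hells (chr19:38930840-38930989, plus strand): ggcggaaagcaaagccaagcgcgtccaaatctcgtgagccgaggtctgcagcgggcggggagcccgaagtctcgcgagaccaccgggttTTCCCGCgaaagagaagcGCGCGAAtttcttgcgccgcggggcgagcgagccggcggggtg
Cdkn1a (chr17:29090829-29090978, plus strand): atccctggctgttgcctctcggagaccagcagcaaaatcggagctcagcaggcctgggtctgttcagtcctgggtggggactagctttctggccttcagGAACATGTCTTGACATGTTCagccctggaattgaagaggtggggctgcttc

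The second set is Mki67, Top2a and Cdk1. Mki67 and Top2a are mitotic genes that varied widely among the wild types, and Cdk1 is shown because its probe ran against them.
Mki67 (chr7:135716380-135716529, minus strand): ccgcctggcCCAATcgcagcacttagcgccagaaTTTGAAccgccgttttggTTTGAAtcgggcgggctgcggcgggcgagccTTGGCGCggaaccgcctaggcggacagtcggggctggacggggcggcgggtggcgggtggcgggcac
Top2a (chr11:99024190-99024339, minus strand): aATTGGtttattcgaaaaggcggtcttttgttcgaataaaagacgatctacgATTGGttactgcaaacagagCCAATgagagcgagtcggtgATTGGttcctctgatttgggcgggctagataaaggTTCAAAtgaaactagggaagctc
Cdk1 (chr10:69352913-69353062, minus strand): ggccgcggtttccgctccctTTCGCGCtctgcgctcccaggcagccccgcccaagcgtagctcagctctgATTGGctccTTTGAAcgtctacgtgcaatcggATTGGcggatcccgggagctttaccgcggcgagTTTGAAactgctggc

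Over the 250 bases before the start, an E2F core was found in 10 of the 30 members with a listed start region (33.3%), against 7.97% of 27025 genes. It stood in 5 of 10 licensing and fork genes and in 2 of 11 genes of G2 and mitosis. The NF-Y box was found in 20 of 30 members (66.7%) against 34.5% of all genes, and in 10 of the 11 genes of G2 and mitosis. The CHR element was found in 7 of 30 members (23.3%) against 16.3%, of which 5 were genes of G2 and mitosis, among them Mki67, Top2a, Cdk1 and Cdc20. In Mcm6 the letters TTGGCGCGAA hold 2 overlapping E2F cores, 1 on each strand, and this occurs at 2 places. Mcm2 and Mcm3 had no E2F core in this window. The p53 consensus, allowed 1 mismatch in its 20 bases, was searched after the Cdkn1a sequence had been seen. It was found in Cdkn1a, 51 to 32 bases before the start, in no other member, and in 0.0814% of all genes. Cdkn1a has 2 listed starts, and this is the upstream one. The matches are descriptions of letters, and base composition was not matched between the members and all genes.

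Most of the 37 genes were lower in the knockouts than in the wild types as read. The difference was below 0 in 31 genes, where 44.7% of all features lay below 0, and above 0 in 6, with a median of -0.22, while the median over all named genes was -0.0003. None of the 37 passed an adjusted p of 0.05 in the limma fit (Benjamini-Hochberg over all 36169 features), a threshold that 0.0276% of features passed, 0.0138% lower and 0.0138% higher, and the lowest adjusted p of a member was 0.343, for Dbf4. At an unadjusted p of 0.05, 11 members (29.7%) were lower, where 5.02% of all features were, and 1 member was higher, where 4.26% of all features were. All 3 knockouts lay below all 5 wild types in 7 members (18.9%), against 2.85% of all features, and above them in 1 member, against 4.35%. The members are all named genes, for which these shares were higher. Of 19896 named genes 9971 were below 0, 7.38% were lower at unadjusted p 0.05 and 3.97% lay wholly below the wild types. The count of 12 at unadjusted p rested in part on knockout mouse 33, since it was 5 without that mouse, all lower, where 2.23% of all features were. Without wild-type mouse 26 the median difference was -0.096, and without wild-type mouse 22 or knockout mouse 31 the groups did not overlap in 15 members instead of 8, with fewer mice to overlap. Under the turned sign, 14 members were higher (5.96% of all features) and 1 lower at unadjusted p 0.05, and 8 lay wholly above the wild types (3.78% of all features). Of named genes, 8.62% were then higher and 5.5% wholly above.

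**Figure D1:**
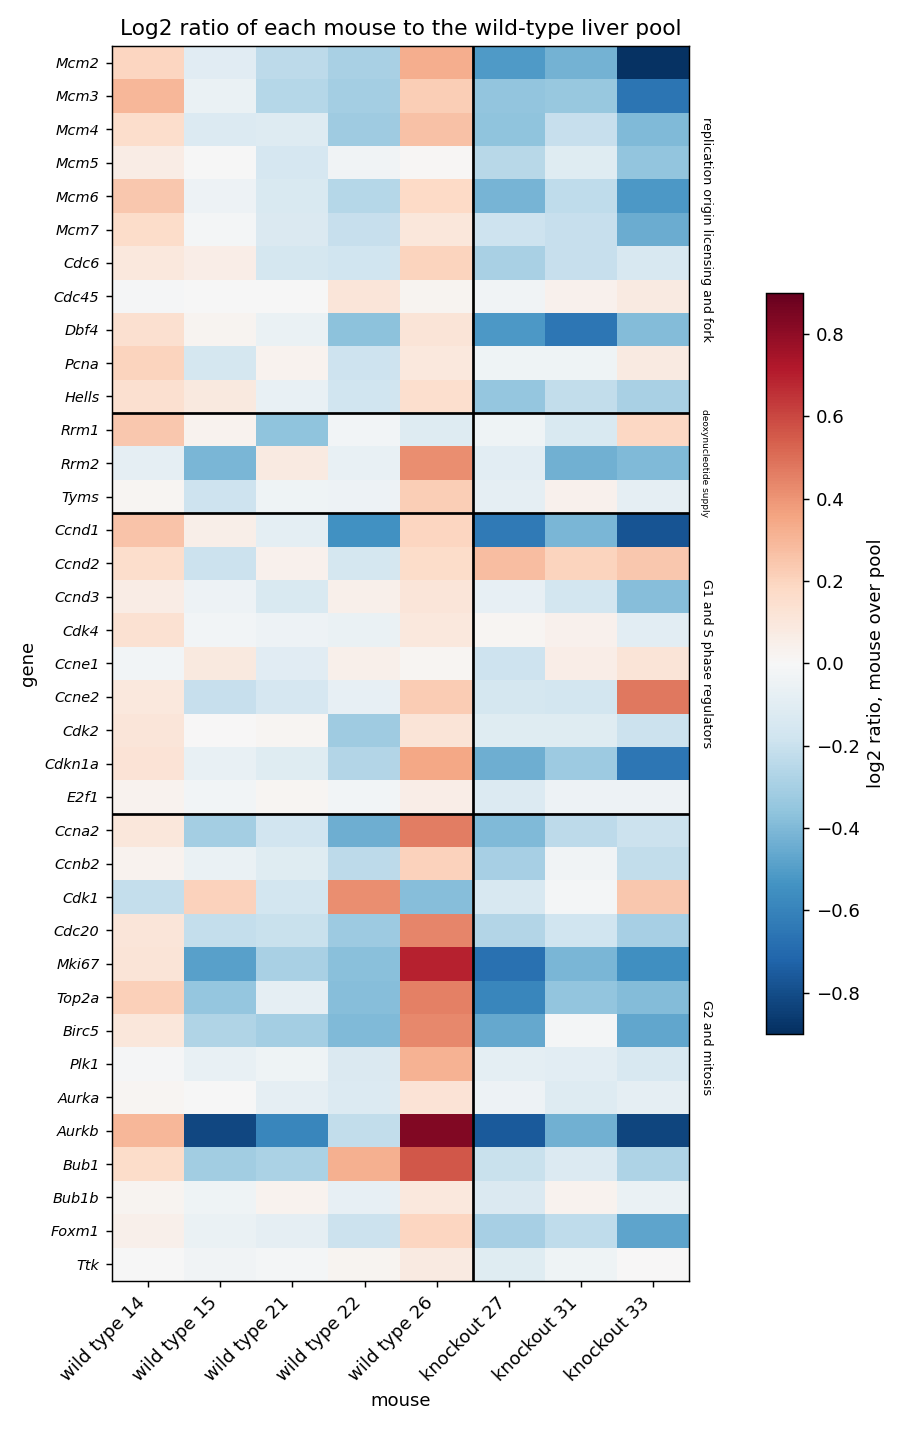
Log2 ratio of each of the 8 mice (columns) to the wild-type liver pool for each of the 37 genes (rows, grouped by role), in red above 0 and in blue below 0, with the knockout arrays as read. Wild-type mice 14 and 26 are red in most rows, and the 3 knockouts are blue in most rows of the licensing genes and of G2 and mitosis, while Ccnd2 is red in all 3 knockouts.

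**Figure D2:**
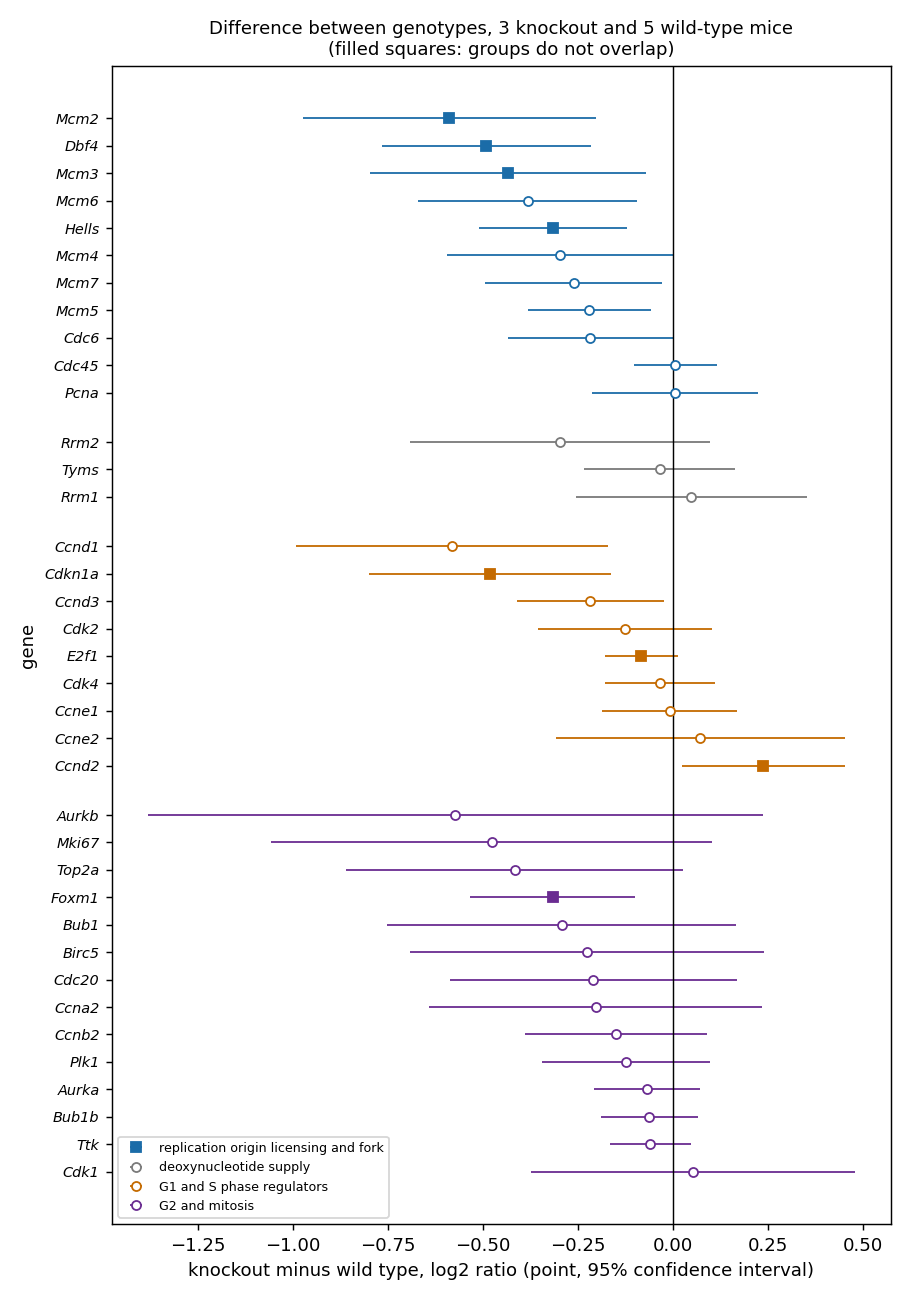
Difference between knockout and wild type for each gene (log2 ratio, point) with its 95% confidence interval from limma, as read, grouped by role. Filled squares mark the 8 genes whose 3 knockout values all lie outside the range of the 5 wild types, with 7 to the left of 0 and Ccnd2 to the right; no gene passed adjusted p 0.05.

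Replication licensing genes held most of the lower members. Mcm2 to Mcm7 encode the 6 subunits of the ring-shaped helicase that is loaded at origins and unwinds DNA, and all 6 were lower, at a median of -0.34, between -0.59 and -0.22. Of these, 5 had an unadjusted p under 0.05, where 5.02% of all features were lower, and Mcm4 had 0.0514. With the sign turned all 6 were higher at unadjusted p 0.05, against 5.96% of all features, at a median of 0.37. Mcm2 had log2 ratios of -0.51, -0.42 and -0.89 in the knockouts and 0.19, -0.10, -0.24, -0.29 and 0.33 in the wild types. All 3 knockouts lay below every wild type, and mouse 33 was the lowest. The Mcm2 ratio in the knockouts was thus 0.666 times that in the wild types (-0.59 ± 0.17, unadjusted p = 0.00787, adjusted p = 0.403 in limma, exact two-sided permutation p = 0.0357). Mcm3 had -0.35, -0.34 and -0.66 in the knockouts and 0.30, -0.06, -0.26, -0.30 and 0.22 in the wild types. The groups did not overlap here either, but the gap was small, since wild-type mouse 22 at -0.30 lay next to knockout mouse 31 at -0.34. The Mcm3 difference was -0.43 ± 0.16 (adjusted p = 0.49, limma).

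The groups of the other 4 subunits overlapped. Mcm6 stood at -0.38 ± 0.13, Mcm4 at -0.30 ± 0.13, Mcm7 at -0.26 ± 0.10 and Mcm5 at -0.22 ± 0.07, all with adjusted p of 0.449 or more (limma). In Mcm6 the value of knockout mouse 31, -0.23, lay above that of wild-type mouse 22, -0.26. In Mcm5 the value of mouse 31, -0.11, lay above that of wild-type mouse 21, -0.15. Knockout mouse 33 was the lowest of the 8 mice in all 6 subunits. Its array had the widest spread of the knockouts (SD 0.273), and this count was not made for all genes. Wild-type mice 14 and 26 were the 2 highest wild types in all 6, where 18.4% of all named genes have these mice on top. Averaged over the 6 subunits, the wild types had 0.19, -0.06, -0.17, -0.23 and 0.18 and the knockouts -0.35, -0.25 and -0.54.

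Dbf4, the activating subunit of the Cdc7 kinase that fires licensed origins, gave the smallest p of the set. Its probe is listed under the older symbol AA545217. Its log2 ratios were -0.52, -0.65 and -0.39 in the knockouts and 0.14, 0.03, -0.06, -0.37 and 0.11 in the wild types. Wild-type mouse 22 came close to knockout mouse 33, while the other 4 wild types lay far above. The difference was -0.49 ± 0.12 (1.40-fold lower, unadjusted p = 0.00336, adjusted p = 0.343 in limma, exact two-sided permutation p = 0.0357). Dbf4 passed adjusted p 0.05 when limma weighted each array by its estimated quality (-0.63, adjusted p = 0.0318). In that fit 9.95% of all features were lower at unadjusted p 0.05. Wild-type mouse 22, the wild type nearest the knockouts in Dbf4, had a weight of 0.195, against 0.661 to 2.71 for the other mice.

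Hells, a chromatin remodeler that acts in the upkeep of DNA methylation, was read by 2 probes. Their mean was -0.35, -0.22 and -0.29 in the knockouts and 0.15, 0.09, -0.06, -0.18 and 0.15 in the wild types. The 3 knockouts lay below all wild types, next to mouse 22. The difference of the mean was -0.32 ± 0.08 (adjusted p = 0.38, limma), but the probes differed: 1 gave -0.44 ± 0.07 with no overlap and the other -0.19 ± 0.15 with overlap. Cdc6, which loads the helicase with Cdt1, stood at -0.22 ± 0.09, with an unadjusted p of 0.051.

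The 2 remaining genes of the fork gave differences near 0. Pcna, the sliding clamp of the DNA polymerases, differed by 0.01 ± 0.09 with a 95% confidence interval from -0.21 to 0.22. Cdc45, a partner of the MCM helicase at the fork, differed by 0.01 ± 0.05 (interval -0.10 to 0.12). Among the 11 licensing and fork genes, 9 were below 0. Of these, 7 (63.6% of the 11) were lower at unadjusted p 0.05, against 5.02% of all features and 7.38% of named genes. In 4 (36.4%) the groups did not overlap, against 2.85% of all features. With the sign turned, 10 were above 0, 8 of them at unadjusted p 0.05 (5.96% of all features). Of the 11, 6 then lay wholly above the wild types (3.78% of all features). As read, the intervals of Pcna and Cdc45 lie above the Mcm2 estimate of -0.59. The Mcm2 interval, from -0.97 to -0.20, meets that of Pcna, and differences between genes were not tested. The Cdc45 ratios varied little over the 8 mice (SD 0.05), so its narrow interval may reflect a probe that responds little.

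**Figure D3:**
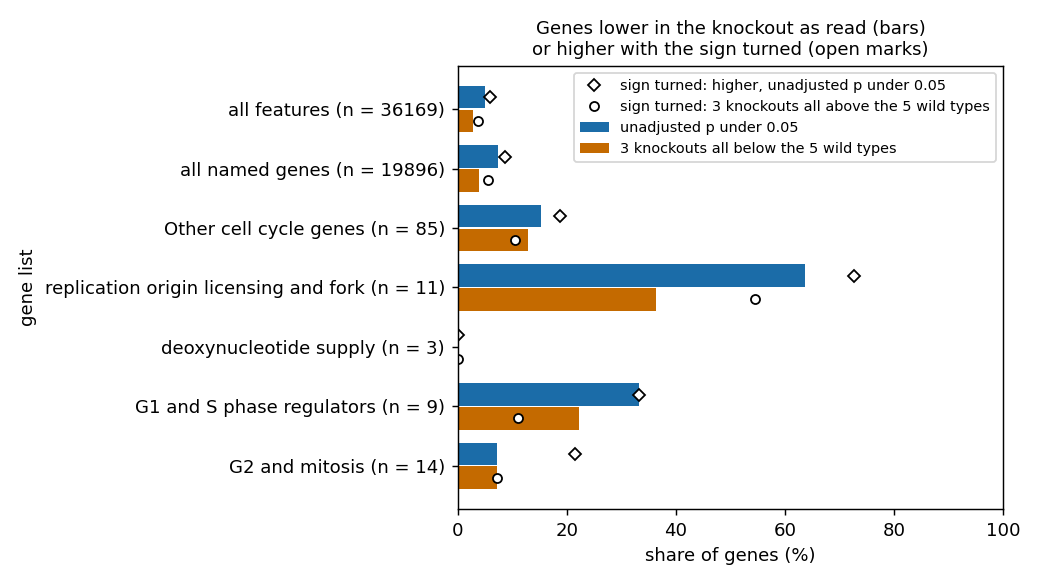
Share of genes lower in the knockout as read (x axis, percent) at unadjusted p 0.05 (blue) and with all 3 knockouts below all 5 wild types (orange), for all features, all named genes, other cell cycle genes and the 4 role groups. Open marks give the shares higher with the knockout sign turned. Licensing and fork genes stand at 63.6% and 36.4% (72.7% and 54.5% turned), G2 and mitosis genes at 7.14% in both (21.4% and 7.14% turned), and all features at 5.02% and 2.85% (5.96% and 3.78% turned).

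None of the 3 genes that supply deoxynucleotides had an unadjusted p under 0.05 or groups that did not overlap, as read or with the sign turned. Ribonucleotide reductase makes deoxynucleotides from ribonucleotides, with Rrm1 as its large subunit and Rrm2 as the small one that is made in S phase, and Tyms makes thymidylate. Rrm2 had -0.09, -0.44 and -0.40 in the knockouts and -0.08, -0.41, 0.08, -0.07 and 0.42 in the wild types. Wild-type mouse 15 lay among the lowest knockouts, and the difference was -0.30 ± 0.17 (95% confidence interval -0.69 to 0.10, adjusted p = 0.623, limma). It was -0.40 without that mouse (unadjusted p = 0.0276, adjusted p = 0.698, limma) and -0.19 without mouse 26. Its 2 probes gave -0.40 ± 0.29 (unadjusted p = 0.199) and -0.20 ± 0.08 (unadjusted p = 0.0368, adjusted p = 0.516, limma). Rrm1 had -0.04, -0.14 and 0.19 in the knockouts and 0.24, 0.03, -0.36, -0.02 and -0.11 in the wild types. Tyms had -0.08, 0.04 and -0.08 in the knockouts and 0.02, -0.18, -0.04, -0.04 and 0.22 in the wild types. The differences were 0.05 ± 0.13 for Rrm1 (95% confidence interval -0.26 to 0.35) and -0.03 ± 0.09 for Tyms (-0.23 to 0.17), with knockouts inside the wild-type range in both.

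Among the regulators of G1 and S phase, cyclin D1 and the inhibitor p21 both had lower means in the knockouts as read. Of the 9 genes, 7 were below 0. At unadjusted p 0.05, 3 (33.3%) were lower and 1 higher, against 5.02% and 4.26% of all features. Among named genes, 7.38% were lower. With the sign turned, 5 of the 9 were above 0, 3 higher (5.96% of all features) and 1 lower (5.52% of all features). Ccnd1 encodes cyclin D1, which carries growth signals into the cycle and is known for its induction when hepatocytes leave rest. Its log2 ratios were -0.63, -0.41 and -0.78 in the knockouts and 0.25, 0.05, -0.09, -0.55 and 0.19 in the wild types. Wild-type mouse 22 lay inside the knockout range, and the other 4 wild types lay above it. Ccnd1 was 1.49-fold lower (-0.58 ± 0.18, adjusted p = 0.43 in limma, exact two-sided permutation p = 0.0714). Cdkn1a encodes p21, which holds cyclin-dependent kinases in check and is a target of p53. It had -0.44, -0.33 and -0.65 in the knockouts and 0.13, -0.06, -0.11, -0.26 and 0.35 in the wild types. All 3 knockouts lay below all wild types, with a difference of -0.48 ± 0.14 (1.40-fold lower, adjusted p = 0.406 in limma, exact two-sided permutation p = 0.0357). As read, a driver of the cycle and an inhibitor of it thus both had lower means in the knockouts, neither at adjusted p 0.05.

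The 3 D cyclins did not move alike. Ccnd2 was the member whose knockouts all lay above the wild types, with knockouts of 0.28, 0.20 and 0.24 and wild types of 0.16, -0.19, 0.04, -0.15 and 0.16. The gap was narrow, as mouse 31 stood just above wild-type mice 14 and 26, and the difference was 0.24 ± 0.09 (unadjusted p = 0.0336, adjusted p = 0.508, limma). Ccnd3 stood at -0.22 ± 0.08 (unadjusted p = 0.0322), largely through mouse 33 at -0.38. The difference between the responses of the D cyclins was not tested. E2f1, the transcription factor that switches on S phase genes, had knockouts of -0.12, -0.05 and -0.04 below wild types of -0.02 to 0.06. That difference was small, at -0.08 ± 0.04 (unadjusted p = 0.0858), and the wild-type SD of E2f1, 0.04, was lower than that of all but 5.56% of named genes. Cdk2, the kinase of cyclins E and A, stood at -0.13 ± 0.10, Cdk4, the kinase of the D cyclins, at -0.03 ± 0.06, Ccne1 at -0.01 ± 0.08 and Ccne2 at 0.07 ± 0.17. Ccne2 was 0.47 in knockout mouse 33 but -0.16 and -0.17 in mice 27 and 31.

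Genes of G2 and mitosis were mostly lower, but the wild types spread as widely as the genotypes differed. Of 14 genes, 13 were below 0 with a median of -0.21. Only 1 (7.14%) was lower at unadjusted p 0.05, near the 5.02% of all features and 7.38% of named genes. With the sign turned, all 14 were above 0 with a median of 0.25. Foxm1, Top2a and Mki67 (21.4% of the 14) then had an unadjusted p under 0.05, where 5.96% of all features were higher. The size rested in part on wild-type mouse 26, since without it the median was -0.089, with all 14 below 0. The gene with an unadjusted p under 0.05 as read was Foxm1, the transcription factor of the G2 and mitosis programme. Foxm1 had -0.30, -0.23 and -0.47 in the knockouts and 0.05, -0.06, -0.08, -0.20 and 0.20 in the wild types. Its groups did not overlap, and the difference was -0.32 ± 0.09 (1.24-fold lower, unadjusted p = 0.00996, adjusted p = 0.42 in limma).

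Mki67, the marker of dividing cells known as Ki-67, showed the wild-type spread. It had 0.12, -0.49, -0.29, -0.37 and 0.69 in the wild types, and -0.67, -0.41 and -0.55 in the knockouts. Wild-type mouse 15 lay inside the knockout range, and mouse 26 stood far above all others. The difference was -0.48 ± 0.25 (adjusted p = 0.592, limma). Top2a, the topoisomerase that untangles chromosomes, had 0.21, -0.35, -0.08, -0.38 and 0.45 in the wild types and -0.59, -0.35 and -0.39 in the knockouts. Its difference was -0.42 ± 0.19 (adjusted p = 0.555, limma), with wild-type mice 15 and 22 as low as knockouts 31 and 33. Aurkb, the kinase of the chromosomal passenger complex, spread most of all members, with 0.30, -0.82, -0.59, -0.22 and 0.83 in the wild types and -0.76, -0.43 and -0.83 in the knockouts. Its wild-type SD of 0.67 exceeded that of 98.8% of named genes, and its difference was -0.57 ± 0.35 (adjusted p = 0.644, limma). Without wild-type mouse 26 the differences were -0.29 for Mki67 and -0.34 for Aurkb.

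The other genes of mitosis had overlapping groups and adjusted p of 0.677 or more (limma). Bub1, a kinase of the spindle checkpoint, stood at -0.29 ± 0.20. Birc5, the survivin of the passenger complex, stood at -0.23 ± 0.20, and Cdc20, an activator of the anaphase-promoting complex, at -0.21 ± 0.16. Without wild-type mouse 26 these were -0.17, -0.096 and -0.089. Cyclins A2 and B2 stood at -0.20 ± 0.19 and -0.15 ± 0.10, and the mitotic kinase Plk1 at -0.12 ± 0.10, against -0.070, -0.089 and -0.047 without that mouse. Aurka, the kinase of the spindle poles, stood at -0.07 ± 0.06 as the mean of 2 probes, of which 1 gave -0.20 ± 0.10 and the other 0.07 ± 0.08. The checkpoint kinases Bub1b and Ttk stood at -0.06 ± 0.06 and -0.06 ± 0.05. A further probe, listed as Aim1, was not counted, since that old name belongs to Aurkb and to another gene.

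Cdk1, the kinase of mitosis, ran against its partners. Its probe, listed as Cdc2a, had -0.21, 0.21, -0.17, 0.42 and -0.38 in the wild types. Ccna2, one of the cyclins that bind it, had 0.10, -0.31, -0.17, -0.44 and 0.46 in the wild types. Mouse 22 was thus the highest wild type for Cdk1 and the lowest for Ccna2, and mouse 26 the reverse. In knockout mice 27, 31 and 33 Cdk1 had -0.14, -0.02 and 0.24 and Ccna2 had -0.40, -0.23 and -0.20. The Cdk1 difference was 0.05 ± 0.19 (95% confidence interval -0.37 to 0.48). Of the 14 genes of G2 and mitosis, 13 had mouse 26 as the highest wild type, and Cdk1 was the exception. Over all 19896 named genes, mouse 26 was the highest wild type in 5301. What the Cdk1 probe reads was not checked, since probe sequences were not used.

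The wild-type littermates themselves thus differed in these genes. Mice 14 and 26, singled out after the values were seen, were the 2 highest wild types in 29 of the 37 members (78.4%), against 18.4% of all named genes. Over all probes their arrays correlated at 0.391, the highest of the wild-type pairs. The Me1 probe was also highest among the wild types in these mice (0.82 and 0.70). Mouse 22 was the lowest wild type in 22 members. This mouse, whose array had the widest spread, was also the lowest wild type in 7881 of all 19896 named genes and the highest in 5878. The median wild-type SD was 0.18 over the members and 0.11 over all named genes, and 10 of the 37 exceeded 90% of named genes. By role, the 2 mice were on top in 10 of 11 licensing and fork genes, in 8 of 9 regulators of G1 and S phase and in 10 of 14 genes of G2 and mitosis, but in 1 of 3 genes of deoxynucleotide supply. If the pool was made of these 5 mice, their ratios are bound to lie around 0, so high values in some mice come with low values in others. The lowest of all 8 mice was a knockout in 26 members, of which 14 were in mouse 33, 10 in mouse 27 and 2 in mouse 31. The array of mouse 33 had the widest spread of the knockouts (SD 0.273), and this count was not made for all genes. The order of knockout mice 27, 31 and 33 differed by role. The mean over licensing and fork genes was -0.30, -0.24 and -0.36, lowest in mouse 33. Over G1 and S phase regulators it was -0.158, -0.103 and -0.146, and over G2 and mitosis -0.32, -0.16 and -0.27, both lowest in mouse 27. Over deoxynucleotide supply it was -0.07, -0.18 and -0.10, lowest in mouse 31. These orders were not tested.

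**Figure D4:**
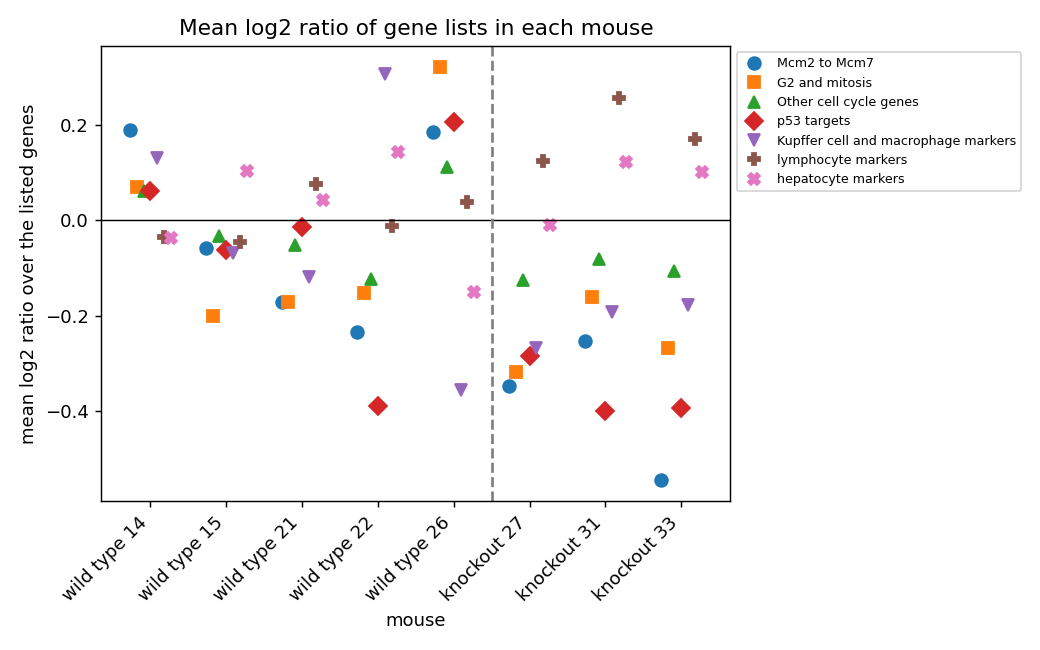
Mean log2 ratio over the genes of 7 lists (y axis) in each mouse (x axis), wild types left of the dashed line and knockouts, as read, right of it. The mean of Mcm2 to Mcm7 is lower in each of the 3 knockouts than in any wild type. In knockout mouse 31 the p53 targets lie below it. G2 and mitosis genes peak in wild-type mouse 26, and macrophage markers are lowest in that mouse. Lymphocyte markers are higher in each knockout than in any wild type.

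Other genes of the cell cycle were mostly below 0 too. Of 88 listed genes 85 were measured, of which 62 were below 0 and 23 above, with a median of -0.09. None passed adjusted p 0.05 (limma), 13 were lower (15.3%, against 5.02% of all features) and 2 higher at unadjusted p 0.05, and in 11 (12.9%, against 2.85% of all features) the knockouts lay wholly below the wild types. Of all features 4.26% were higher, and of named genes 7.38% were lower and 3.97% lay wholly below the wild types. Read the other way, 63 of the 85 were above 0. Of these, 16 were higher at unadjusted p 0.05 (5.96% of all features), and 9 lay wholly above the wild types (3.78% of all features). Of the 5 lower genes with the smallest p, E2f2, an E2F activator, stood at -0.41 ± 0.09, with knockouts of -0.17, -0.45 and -0.58 against wild types from -0.07 to 0.08. Uhrf1, which guides the copying of DNA methylation, stood at -0.50 ± 0.11, the licensing factor Cdt1 at -0.38 ± 0.09, the spindle protein Nusap1 at -0.38 ± 0.11, and Chaf1a, a subunit of the histone chaperone that follows the fork, at -0.36 ± 0.10. Of those above 0, Wee1, the kinase that restrains Cdk1, stood at 0.23 ± 0.07 with no overlap. The repressor E2f8 stood at 0.55 ± 0.23, the thymidine kinase Tk1 at 0.48 ± 0.24, Mcm10 at 0.26 ± 0.16 and Cks2, a partner of Cdk1, at 0.14 ± 0.09. In E2f8 knockout mouse 27, at -0.10, did not share the values of mice 31 and 33, 0.65 and 1.08.

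Targets of p53 were set beside Cdkn1a. Of 16 measured genes 14 were below 0, with a median of -0.25. At unadjusted p 0.05, 5 were lower, where 5.02% of all features and 7.38% of named genes were, and 1 higher, where 4.26% of all features were. None passed adjusted p 0.05 (limma). Of the 16, 2 (12.5%) lay wholly below the wild types, against 2.85% of all features and 3.97% of named genes. On the turned reading 14 were above 0, and at unadjusted p 0.05 7 were higher (5.96% of all features) and 1 lower (5.52%). Then 3 lay wholly above the wild types (3.78% of all features). The higher one as read was Sesn1, a stress-induced regulator of growth signalling, at 0.29 ± 0.06. Phlda3 and Zmat3 stood at -0.53 ± 0.16 and -0.48 ± 0.15, but their groups overlapped through wild-type mouse 22, at -0.57 and -0.35. The mean over the list was -0.28, -0.40 and -0.39 in the knockouts, but also -0.39 in wild-type mouse 22, against 0.21 in mouse 26. Clock genes, which set the time of Wee1 and Cdkn1a expression in liver, had 7 of 15 members below 0 and 8 above, with a median of 0.05, and with the sign turned they had the same split of 7 and 8. Arntl stood at -0.36 ± 0.12 (unadjusted p = 0.0149), Dbp at 0.22 ± 0.10 and Per2 at 0.44 ± 0.22, the last 2 with unadjusted p above 0.05. The time of tissue collection is not given in the sources used here.

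Markers of the cell types in liver were counted in the same fit, and their part in the results was not tested. Over all features, 44.7% lay below 0, and 5.02% were lower and 4.26% higher at unadjusted p 0.05. Among named genes, 7.38% were lower. With the sign turned, 5.96% of all features were higher and 5.52% lower. Hepatocyte markers had 5 of 10 below 0, with means from -0.15 to 0.14 in the wild types and from -0.01 to 0.12 in the knockouts, and 7 of 10 below 0 with the sign turned. Of the markers for Kupffer cells and macrophages, 11 of 13 lay below 0, with 1 (7.69%, near the share of named genes) at unadjusted p 0.05. With the sign turned, 11 of these markers lay above 0. Their mean ran from -0.36 to 0.31 in the wild types and from -0.27 to -0.18 in the knockouts, and its lowest value was in wild-type mouse 26, where the genes of G2 and mitosis were highest. Lymphocyte markers had 12 of 13 above 0, where 55.3% of all features were, with 3 higher at unadjusted p 0.05, where 4.26% of all features were, and means of 0.12 to 0.255 in the knockouts against -0.05 to 0.08 in the wild types. On the turned reading 12 of 13 were below 0 and 3 were lower at unadjusted p 0.05, against 5.52% of all features. Neutrophil markers had 7 of 9 below 0 and 3 (33.3%) lower at unadjusted p 0.05, against 5.02% of all features. The 3 were Camp (-0.525), Ngp (-0.46) and S100a8 (-0.32), all with overlapping groups. With the sign turned, 5 of 9 neutrophil markers were above 0. Endothelial markers had 4 of 8 below 0 on either reading. At unadjusted p 0.05, Lyve1 (-1.005) and Vwf (-0.39) were lower and Kdr (0.21) and Clec4g (0.20) higher. The groups overlapped in Lyve1 and Clec4g but not in Vwf and Kdr. In Lyve1 wild-type mouse 22, at -0.90, lay below knockout mouse 27, at -0.78. Erythroid markers had 4 of 8 below 0, none at unadjusted p 0.05, stellate cell markers 5 of 7, with Col1a1 (-1.29) at unadjusted p 0.05, and bile duct markers 4 of 6, with Epcam (-0.24) lower and Krt7 (0.09) higher at unadjusted p 0.05. The turned reading put 2, 2 and 1 genes of these lists below 0. Stellate cell markers had means of -0.35, -0.43 and -0.27 in the knockouts, of -0.49 in wild-type mouse 22 and of 0.28 in mouse 26. The groups overlapped in Col1a1, where wild-type mouse 22, at -1.665, lay below knockout mice 31 and 33, at -1.384 and -1.517.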

How the data were processed

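Liver RNA of 8 mice was labelled with Cy3 and Cy5 by an aminoallyl method, per the labels' protocols. The authors deposited 1 column of log ratios per mouse, read here as log10. Nothing in the sources used here states how dye swaps were merged or how background correction and normalization were done. Values run from -2 to 1.34 over 39556 probes. Probes were named through the platform annotation. Of the probes, 23283 had 1 symbol, 0 had several and 16273 had none. Symbols were updated through a RefSeq table of GRCm38.p6 (16574 current, 6594 updated, 115 kept as listed), by which 3 members matched through an old name.

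Ratios were put on the log2 scale and probes of 1 symbol averaged, giving 36169 features. Groups came from the sample titles. The genotypes were compared with lmFit and eBayes of limma 3.58.1, under R 4.3.3, with p-values adjusted by Benjamini-Hochberg over all features at 0.05, after a test on simulated data. Exact permutation tests ran over the 56 splits of the mice, where the smallest possible p is 0.0179. Mice are the replicates. Members described mouse by mouse are, per role, the 2 with the smallest p and the 2 with the largest SD, with Ccnd1 and Cdkn1a; others are named by their role. Of the added lists, the 5 other cell cycle genes of smallest p in each direction, and the 3 of p53 targets and clock genes, are named. Ccnd2, E2f1, Cdk1, Ccna2, Ccnd3, Ccne2 and E2f8 were given mouse by mouse after their values were seen. The motifs, the 8 start regions shown, the grouping of Mcm2 to Mcm7 and the count of members with wild-type mice 14 and 26 on top were also chosen after the values were seen. The members and lists were chosen with earlier results of these data known. Alternatives covered the direction, centring, normalization, array weights, single probes, a filter on the least variable features, the pool as reference, symbol matching and leaving out arrays.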

Additional observations from a re-analysis of the deposited data

Results flagged for a closer look

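In 3 of the 37 members, 1 wild-type mouse lay far from the other 4 by Dixon's criterion, which chance meets in about 1 of 20 groups. Plk1 was 0.32 in wild-type mouse 26, above the other wild types. Cdk2 was -0.32 in wild-type mouse 22, below the other wild types. Cdc45 was 0.11 in wild-type mouse 22, above the other wild types.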

How the results depend on the processing

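The direction of the knockout arrays, which is not settled, decides the sign of the results. With it turned, the median difference over the members went from -0.22 to 0.22, and 32 members changed sign: Mcm2 0.63, Mcm3 0.47, Mcm4 0.35, Mcm5 0.26, Mcm6 0.39, Mcm7 0.30, Cdc6 0.21, Cdc45 -0.052, Dbf4 0.55, Hells 0.26, Rrm2 0.32, Tyms 0.046, Ccnd1 0.63, Ccnd2 -0.24, Ccnd3 0.20, Ccne2 -0.026, Cdk2 0.15, Cdkn1a 0.46, E2f1 0.057, Ccna2 0.35, Ccnb2 0.22, Cdc20 0.29, Mki67 0.62, Top2a 0.47, Birc5 0.40, Plk1 0.093, Aurka 0.095, Aurkb 0.77, Bub1 0.11, Bub1b 0.044, Foxm1 0.35 and Ttk 0.037 (log2). Under the other alternatives the members that changed sign were the ones near 0. They were Cdc45 -0.0095 and Pcna -0.0092 with array medians at 0, Cdc45 -0.0021 and Pcna -0.030 with quantile normalization, Pcna -0.094, Rrm1 -0.073, Ccne1 0.016 and Ccne2 -0.067 with array weights, and Pcna -0.078, Rrm1 -0.037 and Ccne2 -0.15 without mice 22 and 33.

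The number of features past adjusted p 0.05 was 10. It was 207 with array weights, 16 with single probes, 17 without the least variable features, 19 without mice 22 and 33, 76 for the knockouts against the pool, and 6 to 65 with 1 mouse left out. The number of members past it went from 0 to 1 with array weights, through Dbf4 (-0.63), and stayed at 0 in all 8 fits with 1 mouse left out. The weight of wild-type mouse 22 was 0.195, against 0.661 to 2.71 for the other mice. Members past unadjusted p 0.05 numbered 12, and 5 to 14 with 1 mouse left out, with 5 in the fit without mouse 33. Members whose groups did not overlap numbered 8, 17 without mice 22 and 33, and 8 to 15 with 1 mouse left out, the highest without wild-type mouse 22 or knockout mouse 31; fewer mice make overlap less likely. The median difference lay between -0.25 and -0.096 with 1 mouse left out (-0.096 without wild-type mouse 26), and the sign held in all 8 such fits for 29 of the 37 members. The others were Ccne1 from -0.068 to 0.085, Ccne2 from -0.14 to 0.18, Cdc45 from -0.019 to 0.035, Cdk1 from -0.055 to 0.16, Cdk4 from -0.058 to 0.0083, Pcna from -0.039 to 0.058, Rrm1 from -0.041 to 0.12 and Tyms from -0.079 to 0.023. No paired analysis was possible because no mouse number is shared between the genotypes. Overlap with the wild types was not counted for the knockouts against the pool. Signal over background could not be set, since only ratios were used here.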
